A study of Mus musculus with 32 samples.

Results

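Tumour necrosis factor (TNF), the relatives of its ligand and receptor families measured with it here, and the first proteins of their signalling chain were followed at the RNA level in mouse tumour-associated macrophages, which are macrophages living inside a tumour. The 10 genes were the ligands Tnf, Ltb and Tnfsf9, the receptors Tnfrsf1a, Tnfrsf1b and Tnfrsf9, and the proximal proteins Traf1, Traf2, Birc3 and Tradd. They were chosen by name, and each was read through its probe set of highest mean among those with a single gene symbol, out of 17097 genes on the HT_MG-430_PM chip and 22180 genes on the Mouse Gene 2.0 ST chip. All 10 passed the filter on low values in each of the 3 experiments.

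The study asked how inflammatory signalling shapes these cells. In the tumour model experiment, CD11b-enriched cells came from neuroblastomas of Th-MYCN transgenic mice and from tumours of EG7, a transplanted thymoma line of T lymphocyte origin, in WT mice (3 arrays each). In the Myd88 experiment, CD11b-enriched cells came from EG7 tumours grown in Myd88-/- or in WT hosts (5 arrays each). In the sorted experiment, population A (CD11b+, Ly6C+, MHC class II-, Ly6G-) and population C (CD11b+, Ly6C-, MHC class II+) came from EG7 tumours in 4 kinds of host, with 2 arrays for each population and host. The hosts were TNFR1-/- with Myd88 flox/flox and Tie2-Cre (double KO), Myd88 flox/flox with Tie2-Cre (Myd88 cKO), TNFR1-/-, and WT. Tie2-Cre is active in endothelial as well as blood-forming cells, the hosts' tumour cells are EG7 cells whose own genes were not altered by the host genotype, and no ages were stated for the mice. Separate mice behind the arrays of 1 group are not stated, so each p-value reflects the spread among the arrays at hand, and that may be technical.

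TNF is made by macrophages as a membrane protein and is released by a protease. It signals through TNFR1, encoded by Tnfrsf1a and present on most cells, and through TNFR2, encoded by Tnfrsf1b and found mainly on blood and endothelial cells. At TNFR1 the adaptor TRADD recruits TRAF2 and the ubiquitin ligases cIAP1 and cIAP2, which lead to NF-kB, and NF-kB in turn raises transcription of several genes of the chain, Tnf, Traf1 and Birc3 (the gene of cIAP2) among them. Toll-like receptors, with few exceptions, and receptors of the interleukin-1 family use MYD88 as their adaptor on the way to NF-kB.

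None of 9 macrophage markers, Adgre1, Csf1r and C1qa among them, stood below the 40th percentile of probe sets on all arrays of an experiment. The same held for the 6 neuroblastoma markers in the Myd88 and sorted experiments, which had EG7 tumours only. This check therefore cannot tell which cell types were present. The targeted gene Myd88 averaged 7.62 in Myd88-/- and 8.37 in WT hosts on the log2 scale (difference -0.75 ± 0.10, SE, limma adjusted p = 0.00175). In sorted cells it averaged 7.92 in the 8 arrays with the Tie2-Cre deletion and 9.7 in the 8 without it, with no overlap between them. Array medians of the log2 signal were 2.95 to 3.03 in the Myd88 experiment, 3.84 to 3.93 in the tumour models and 5.31 to 5.5 in the sorted cells, so levels were compared only within an experiment. Among sorted groups the A_WT pair had the lowest correlation with each other, 0.931, against 0.957 to 0.987 in the other pairs.

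Promoter sequences, 250 bases before the annotated start, were taken from RefSeq (build GRCm38.p6) for the 8 of 10 members that the table held, 9 windows in all. Tnfsf9 and Tradd had no entry. Each window was searched on both strands for the NF-kB consensus by its name, for the TATA box TATAAA and for the AP-1 motif TGANTCA. Tnf and Traf1 are shown as members that were lower in Myd88-/- hosts, and Ltb and the second window of Tnfrsf9 as the members whose windows held the NF-kB consensus. Capitals mark motif matches, and each sequence reads 5′ to 3′ on the gene's own strand.
Tnf (chr17:35202008-35202257, minus strand): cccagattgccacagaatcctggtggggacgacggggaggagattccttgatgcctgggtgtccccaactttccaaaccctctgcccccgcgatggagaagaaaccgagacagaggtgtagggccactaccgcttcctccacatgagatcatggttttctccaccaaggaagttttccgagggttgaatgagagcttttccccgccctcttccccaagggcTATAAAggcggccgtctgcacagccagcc
Traf1 (chr2:34961773-34962022, minus strand): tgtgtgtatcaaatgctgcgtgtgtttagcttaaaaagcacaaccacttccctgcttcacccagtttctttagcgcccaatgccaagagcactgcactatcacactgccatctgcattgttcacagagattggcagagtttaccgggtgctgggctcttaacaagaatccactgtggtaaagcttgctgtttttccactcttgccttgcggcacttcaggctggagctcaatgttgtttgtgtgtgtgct
Ltb (chr17:35194257-35194506, plus strand): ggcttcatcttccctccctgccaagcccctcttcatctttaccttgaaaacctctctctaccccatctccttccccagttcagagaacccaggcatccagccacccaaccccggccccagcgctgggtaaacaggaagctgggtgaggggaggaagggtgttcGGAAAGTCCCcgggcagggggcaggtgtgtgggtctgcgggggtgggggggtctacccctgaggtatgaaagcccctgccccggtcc
Tnfrsf9 (chr4:150927749-150927998, plus strand): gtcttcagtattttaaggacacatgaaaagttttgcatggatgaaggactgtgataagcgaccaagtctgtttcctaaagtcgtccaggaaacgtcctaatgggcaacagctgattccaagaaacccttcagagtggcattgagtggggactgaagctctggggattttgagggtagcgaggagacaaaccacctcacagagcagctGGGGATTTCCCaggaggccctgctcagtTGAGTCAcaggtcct

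The Tnf window held a TATA box at 29 to 24 bases before the start, as did 12.4% of the 32851 promoter windows in the table. The Ltb window held the NF-kB consensus on the minus strand at 87 to 78 bases before the start. In the second Tnfrsf9 window the consensus matched at overlapping places between 43 and 33 bases before the start, and TGANTCA, which reads the same on both strands, matched at 15 to 9 bases before it. The consensus was found in 3.9% of all windows and TGANTCA in 6.75%. The windows of Traf1, Traf2, Birc3, Tnfrsf1a, Tnfrsf1b and the first one of Tnfrsf9 held none of these motifs, which says only that the letters are not in these 250 bases.

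The Myd88 experiment addressed how TNF family RNA in the tumour's CD11b-enriched cells depends on a signalling adaptor of the host. In Myd88-/- hosts 5 of the 10 members fell, namely Tnf, Tnfsf9, Tnfrsf1b, Traf1 and Birc3, and 0 rose. Over all 11915 genes tested, 1.18% fell and 0.26% rose, 1.44% in all (limma, adjusted p under 0.05). At an unadjusted p under 0.05 there were 7 members, beside 1486 of the 11915 genes. Of these members only Tnfrsf1a was higher. The members' median log2 difference was -0.47, against 0.01 over all genes.

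Among the ligands, Tnf read 9.81, 9.7, 9.81, 9.85 and 9.84 (log2 signal) in Myd88-/- hosts, against 11.3, 11.35, 11.2, 11.06 and 11.01 in WT hosts. Every Myd88-/- array lay more than a log2 unit below every WT array. Tnf was 2.61-fold lower, a log2 difference of -1.38 ± 0.08 (SE, n = 5 each, limma adjusted p = 3.47e-06). Tnfsf9 encodes 4-1BBL, a costimulatory ligand that activated antigen-presenting cells show to T lymphocytes. It read 8.76, 8.7, 8.68, 8.63 and 8.76 in Myd88-/- hosts, against 10.43, 10.4, 10.33, 9.73 and 10.11 in WT hosts. The groups did not overlap, and Tnfsf9 was 2.82-fold lower (log2 difference -1.49 ± 0.12, adjusted p = 3.99e-05). Ltb, which encodes the lymphotoxin beta chain that holds lymphotoxin at the cell surface, overlapped between the groups. It ranged between 5.93 and 6.56 in Myd88-/- hosts and between 6.37 and 7.21 in WT hosts, and its difference of -0.45 ± 0.16 did not pass the test (adjusted p = 0.252).

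Of the receptors, Tnfrsf1b was lower and Tnfrsf1a was not. Tnfrsf1b read 9.18, 9.2, 9.23, 9.31 and 9.33 in Myd88-/- hosts, against 9.81, 9.96, 9.8, 9.51 and 9.66 in WT hosts. Its groups did not overlap and the fall was 1.41-fold (log2 difference -0.50 ± 0.09, adjusted p = 0.0145). The call was lost when the mean of both Tnfrsf1b probe sets was used (-0.3, adjusted p = 0.238) and when WT replicate 3 was left out (-0.49, adjusted p = 0.0541). Tnfrsf1a, the gene of the main TNF receptor, has 1 probe set on this chip (1417291_PM_at). It read 8.46, 8.5, 8.29, 8.69 and 8.5 in Myd88-/- hosts, against 8.35, 8.17, 8.33, 8.22 and 8.16 in WT hosts. The highest WT arrays reached above the lowest Myd88-/- array, and the difference of 0.24 ± 0.09 did not pass the test (adjusted p = 0.252, 95% interval 0.06 to 0.43). Tnfrsf9, the gene of 4-1BB, the receptor of the Tnfsf9 product, overlapped too. It spanned 5.35 to 5.73 in Myd88-/- hosts and 5.11 to 5.65 in WT hosts, with an interval of the difference of -0.17 to 0.36.

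The proximal genes divided in the same experiment into members that fell and members that did not pass the test. Traf1, a TRAF family adaptor without the ring domain of its relatives, read 7.77, 8.22, 8.01, 8.13 and 8.2 in Myd88-/- hosts, against 8.87, 9.16, 9.24, 8.99 and 8.94 in WT hosts. It was 1.96-fold lower with no overlap (log2 difference -0.97 ± 0.11, adjusted p = 0.000491), and the mean of its second probe set was likewise lower, 6.68 in Myd88-/- and 7.36 in WT hosts. Birc3 read 9.72, 9.76, 9.65, 9.8 and 9.53 in Myd88-/- hosts, against 10.54, 10.73, 10.72, 10.37 and 10.4 in WT hosts. That was a 1.82-fold difference without overlap (log2 difference -0.86 ± 0.09, adjusted p = 0.000532), and its second, dimmer probe set had means of 5.16 and 6.01, also in groups that did not overlap. Traf2, which carries cIAP proteins to the receptor, spanned 5.56 to 5.83 in Myd88-/- hosts and 5.47 to 5.96 in WT hosts, and its difference lay between -0.26 and 0.17 (95% interval). Tradd spanned 3.76 to 4.25 in Myd88-/- hosts and 3.84 to 4.09 in WT hosts, with an interval of -0.24 to 0.2. The 5 called members were the 5 whose groups did not overlap, and over all genes 3.03% had no overlap.

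**Figure D1:**
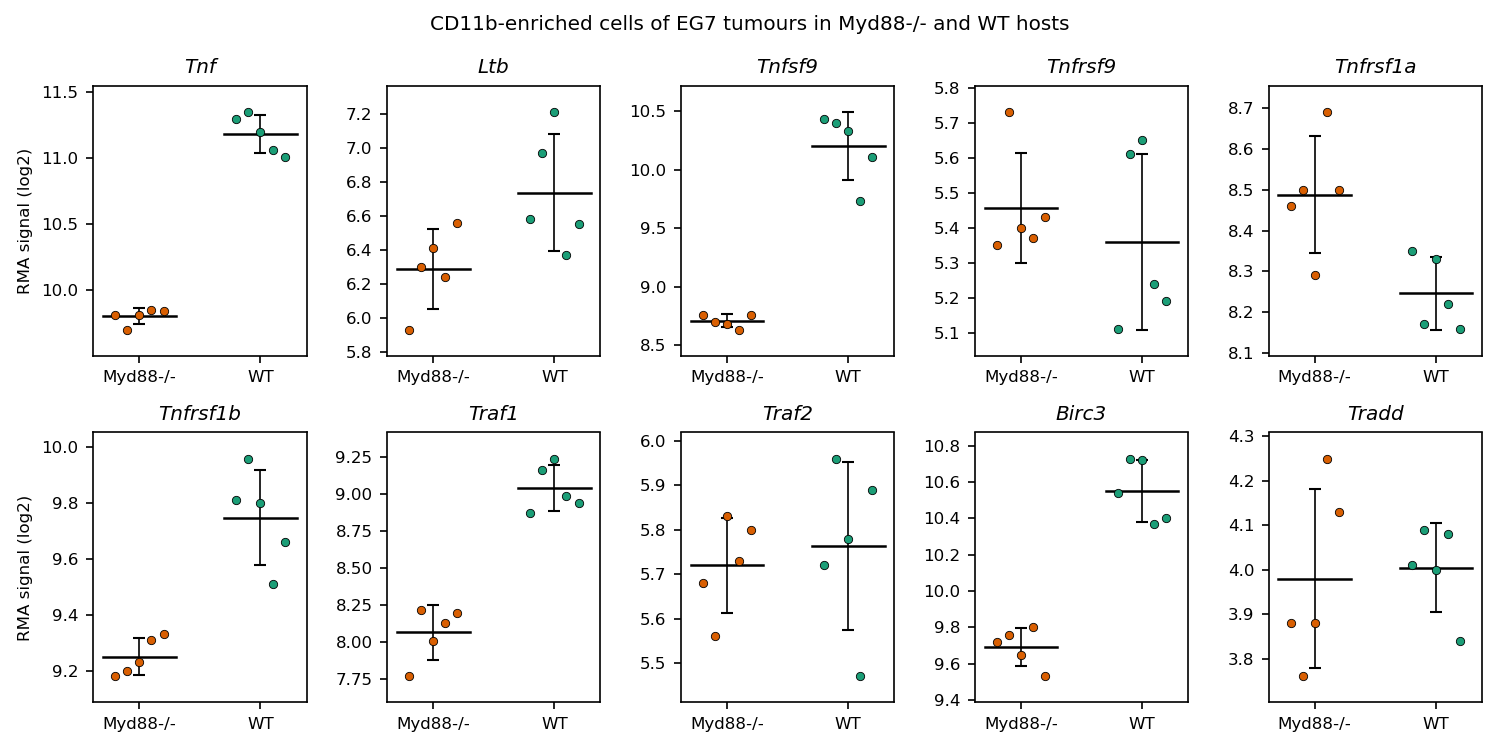
Log2 RMA signal of the 10 members (vertical axis, 1 panel per gene, each with its own scale) in the bead-enriched cells of EG7 tumours, Myd88-/- hosts left and WT hosts right. Points are arrays (n = 5 each), bars the mean and SD; in Tnf, Tnfsf9, Tnfrsf1b, Traf1 and Birc3 every Myd88-/- array lies below every WT array.

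Other measures moved with these groups. Of 5 monocyte markers 4 were lower in Myd88-/- hosts, and the log2 of their summed signal was 11.11 to 11.68, against 11.91 to 12.24 in WT hosts. Macrophage markers had 0 calls of 9 (14.57 to 14.79 in Myd88-/- and 14.59 to 14.7 in WT hosts), and the T lymphocyte and EG7 markers had 0 of 9 (9.57 to 9.93 and 9.37 to 10.17). In bulk RNA fewer cells of a type and less RNA per cell cannot be told apart. RNA quality was read from actin: its 3′ probe set exceeded its 5′ one by 0.64 to 0.78 log2 units in Myd88-/- and 0.54 to 0.68 in WT hosts. The part of monocyte markers and RNA quality in the members' differences was not tested.

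The gene whose values ran closest to Tnf over these 10 arrays, after each gene's mean was taken off, was Tnfsf9. The root mean square difference was 0.146 log2 units, where Tnf itself had an SD of 0.698. Next of the 11915 genes came Gpr84 (0.174), a receptor of medium-chain fatty acids, Dusp2 (0.186), a phosphatase of MAP kinases, Spata13 (0.216) and Prkd3 (0.22). The difference between Myd88-/- and WT hosts enters each of these values.

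In sorted cells, the host changes were TNFR1 loss, Myd88 loss in Tie2-Cre cells, or both, and the question was how each bears on populations A and C. Each deletion was measured as a mean over hosts with and without the other change. Averaged over the populations as well, Tnfrsf1b and Tnfrsf9 were lower with TNFR1 loss, and Tnf was lower with Myd88 loss. In population A, Tnf was 3.71-fold lower in double KO than in WT. No member was called higher in any genotype comparison.

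The receptors come first, since one of them was the target. Tnfrsf1a has 1 probe set on this chip as well (17463184), and no source says whether it lies inside the deleted part, so that the label cannot be checked by its level. In population A it read 7.69 and 8.2 in double KO, 7.51 and 7.59 in TNFR1-/-, 7.95 and 8 in Myd88 cKO, and 8.3 and 8.09 in WT. In population C it read 7.55 and 7.7 in double KO, 7.56 and 7.87 in TNFR1-/-, 8.43 and 8.04 in Myd88 cKO, and 8.55 and 7.81 in WT. The TNFR1-deleted arrays lay mostly at the low end but overlapped with the others in both populations. Over A and C the difference was -0.44 ± 0.12 on the log2 scale, which did not pass the test (n = 8 each, limma adjusted p = 0.0856), and it was -0.34 ± 0.17 in A and -0.54 ± 0.17 in C (adjusted p = 0.39 and 0.233).

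Tnfrsf1b, the other TNF receptor, was lower with TNFR1 deletion. The 8 TNFR1-deleted arrays had a lowest, median and highest value of 8.86, 9.26 and 9.62, against 9.39, 9.87 and 10.15 in the 8 TNFR1-intact arrays. In C all 4 TNFR1-deleted arrays (8.94 to 9.62) lay below all 4 intact arrays (9.85 to 10.15), where 6.38% of all genes did not overlap in either direction. In A the ranges met, at 8.86 to 9.41 against 9.39 to 10.13. The difference over both populations was -0.56 ± 0.12 (adjusted p = 0.025), with -0.57 ± 0.17 in A and -0.55 ± 0.17 in C, neither called alone (adjusted p = 0.163 and 0.221). Tnfrsf9 was lower over both populations too, at -0.57 ± 0.12 (adjusted p = 0.0275). Its values were 6 to 6.39 in TNFR1-deleted and 6.32 to 7.21 in intact arrays of A, and 7.02 to 7.64 in deleted and 7.49 to 8.2 in intact arrays of C, so the ranges overlapped slightly in each. Over all 16524 genes tested 1.98% were called for TNFR1 deletion over both populations, 1.27% as lower. The 95% intervals were -0.82 to -0.31 for Tnfrsf1b and -0.83 to -0.31 for Tnfrsf9.

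Both receptor calls depended on the arrays. The Tnfrsf1b call was lost without replicate 1 of A_doubleKO, replicate 2 of A_Myd88cKO, of A_TNFR1KO or of C_doubleKO, either replicate of C_Myd88cKO or of C_TNFR1KO, or replicate 1 of C_WT. It was also lost with arrays centred on their median (adjusted p = 0.0557), and its difference lay between -0.64 and -0.48 in all 25 other settings (largest adjusted p 0.0786). The Tnfrsf9 call was lost without replicate 2 of A_Myd88cKO, of A_TNFR1KO or of C_TNFR1KO, replicate 1 of C_doubleKO or of C_WT, or either replicate of C_Myd88cKO, with differences of -0.64 to -0.49 (largest adjusted p 0.0968). Beside these differences, 3 of 9 macrophage markers (Apoe, Csf1r and Mertk) and 2 of 4 endothelial markers (Cdh5, -0.81 ± 0.09, and Emcn, -0.46 ± 0.10) were lower in TNFR1-deleted arrays. The log2 summed signal of 7 dendritic cell markers in C was 10.71 to 10.91 in double KO, 10.48 to 10.69 in TNFR1-/-, 9.62 to 9.67 in Myd88 cKO and 9.65 to 9.67 in WT. Of the 7, Ccr7 alone was called there, at 1.88 ± 0.20 (adjusted p = 0.000238), and the list's median difference in C was 0.08. Of the lists of B lymphocyte, natural killer and neutrophil markers, each had 1 marker higher, and the neutrophil list 1 lower. Their part in the receptor differences was not tested.

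Among the ligands, Tnf was high in WT cells of both populations. In population A it read 8.36 and 9.81 in double KO, 9.33 and 9.86 in Myd88 cKO, 9.68 and 8.96 in TNFR1-/-, and 11.17 and 10.78 in WT. All 6 arrays of altered hosts lay below both WT arrays in A, which held for 4 members, Tnf, Tnfsf9, Traf1 and Traf2, and for 10.1% of all genes, with 18.7% not overlapping in either direction. In population C it read 10.31 and 9.65 in double KO, 10.28 and 10.05 in Myd88 cKO, 10.88 and 11.01 in TNFR1-/-, and 10.98 and 10.84 in WT. Here the 4 arrays with the Myd88 deletion lay below the 4 without it, where 3.48% of all genes did not overlap in either direction. The TNFR1-/- and WT arrays interleaved.

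For Myd88 deletion over both populations the Tnf difference was -0.83 ± 0.19 (n = 8 each, adjusted p = 0.0324), where 2.86% of genes were called and 0.412% as lower. It was the sole member called, and 4 members had an unadjusted p under 0.05, against 17.9% of genes. By population it was -0.81 ± 0.27 in A (adjusted p = 0.0974) and -0.85 ± 0.27 in C (adjusted p = 0.734). The call over both populations was lost without either replicate of A_Myd88cKO, of C_Myd88cKO, of C_TNFR1KO or of C_WT, without replicate 1 of A_TNFR1KO, or without replicate 2 of C_doubleKO, with differences of -1.01 to -0.65 over all 25 settings (largest adjusted p 0.0957). Beside it, 5 of 9 macrophage markers, 3 of 9 T lymphocyte and EG7 markers and 1 of 4 endothelial markers were higher in Myd88-deleted arrays. Of 5 monocyte markers 1 was higher (Chil3, 2 ± 0.25) and 2 were lower (Ly6c2 and Plac8). The part of these in the Tnf difference was not tested.

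For double KO against WT in A, Tnf was the sole member called, at -1.89 ± 0.38 (n = 2 each, adjusted p = 0.0197), where 5.75% of genes were called and 1.42% as lower. Of the genes called there 24.7% were lower, and 9.11% with arrays centred on the median, a setting in which Tnf was still called. Replicate 1 of double KO had the lowest value, 8.36, and without that array the difference was -1.16 and the call was lost (adjusted p = 0.17). The call was also lost with array weights (adjusted p = 0.247) and with only the A_doubleKO and A_WT arrays in the fit (adjusted p = 0.379). Of 9 T lymphocyte and EG7 markers 5 were higher in double KO of A, with a log2 summed signal of 10.78 to 10.87 against 9.78 to 9.9 in WT. Of 8 neutrophil markers 1 was higher and 1 lower, and the list's log2 summed signal was 11.22 to 11.8 against 10.49 to 10.53 in WT. Also, 1 of 9 macrophage markers was higher and 1 of 4 natural killer markers lower. The part of these in the Tnf difference was not tested. In C, Tnf differed by -0.93 ± 0.38 between double KO and WT and did not pass the test (adjusted p = 0.689).

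Myd88 deletion and TNFR1 deletion gave 0 calls among the members within a population. Myd88 deletion was the mean of Myd88 cKO minus WT and double KO minus TNFR1-/-. TNFR1 deletion was the mean of TNFR1-/- minus WT and double KO minus Myd88 cKO. For Myd88 deletion 2 members of 10 had an unadjusted p under 0.05 in A and 2 in C (limma, 4 arrays against 4), against 21.7% and 4.67% of all genes, and after adjustment 4.67% and 0.0182% of genes were called. In A these were Tnf and Birc3, with -0.50 ± 0.14 for Birc3 (adjusted p = 0.0581), and in C they were Tnf and Tnfsf9, with -0.90 ± 0.27 for Tnfsf9 (adjusted p = 0.659). For TNFR1 deletion 5 members had an unadjusted p under 0.05 in A and 4 in C, against 13.8% and 7.35% of genes, and after adjustment 0.182% and 1.09% of genes were called. Of these members Ltb in A (0.39 ± 0.16) and Tnfsf9 in C (0.59 ± 0.27) were higher, and the others were lower. In A the Tnf difference was -1.08 ± 0.27 (adjusted p = 0.107). For double KO against WT in C 3 members had an unadjusted p under 0.05, against 6.17% of genes, and 0.309% of genes were called after adjustment. Set against WT alone in A, TNFR1-/- gave 7 members at an unadjusted p under 0.05, against 18.7% of all genes, with 0 called after adjustment, where 0.654% of genes were. Among the 7, Ltb (0.68 ± 0.23) and Birc3 (0.54 ± 0.20) were higher, and the others were lower. Tnf then differed by -1.65 ± 0.38 (adjusted p = 0.0544).

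Whether the host changes acted differently in A and C was tested on the difference itself. For TNFR1 deletion, the effect in A minus that in C was -1.01 ± 0.38 for Tnf (unadjusted p = 0.0185, limma adjusted p = 0.665) and -0.98 ± 0.38 for Tnfsf9 (adjusted p = 0.683). No member passed, while 3 had an unadjusted p under 0.05, against 6.5% of all genes, and 0.103% of genes were called. Besides Tnf and Tnfsf9 the 3 included Birc3, in the other direction (0.48 ± 0.20). Tnfsf9 read 6.44 and 7.45 in double KO, 7.57 and 6.31 in TNFR1-/-, 6.73 and 7.19 in Myd88 cKO, and 7.82 and 7.59 in WT of A. In C it read 8.12 and 7.62 in double KO, 8.96 and 8.99 in TNFR1-/-, 7.43 and 7.53 in Myd88 cKO, and 8.52 and 7.84 in WT. The highest values were thus the TNFR1-/- arrays of C. For Myd88 deletion the effect on Tnf in A minus that in C was 0.05 ± 0.38, with an interval of -0.76 to 0.86. This averages hosts with and without TNFR1, which differed. Myd88 cKO minus WT was -1.38 ± 0.38 in A and -0.74 ± 0.38 in C (limma adjusted p = 0.0612 and 0.999). In TNFR1-deleted hosts the Tnf means of double KO and TNFR1-/- were 9.09 and 9.32 in A, and 9.98 and 10.95 in C. In A the Tnf difference of double KO was less negative than the sum of both single differences by 1.15 ± 0.53, which did not pass the test (adjusted p = 0.481).

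**Figure D2:**
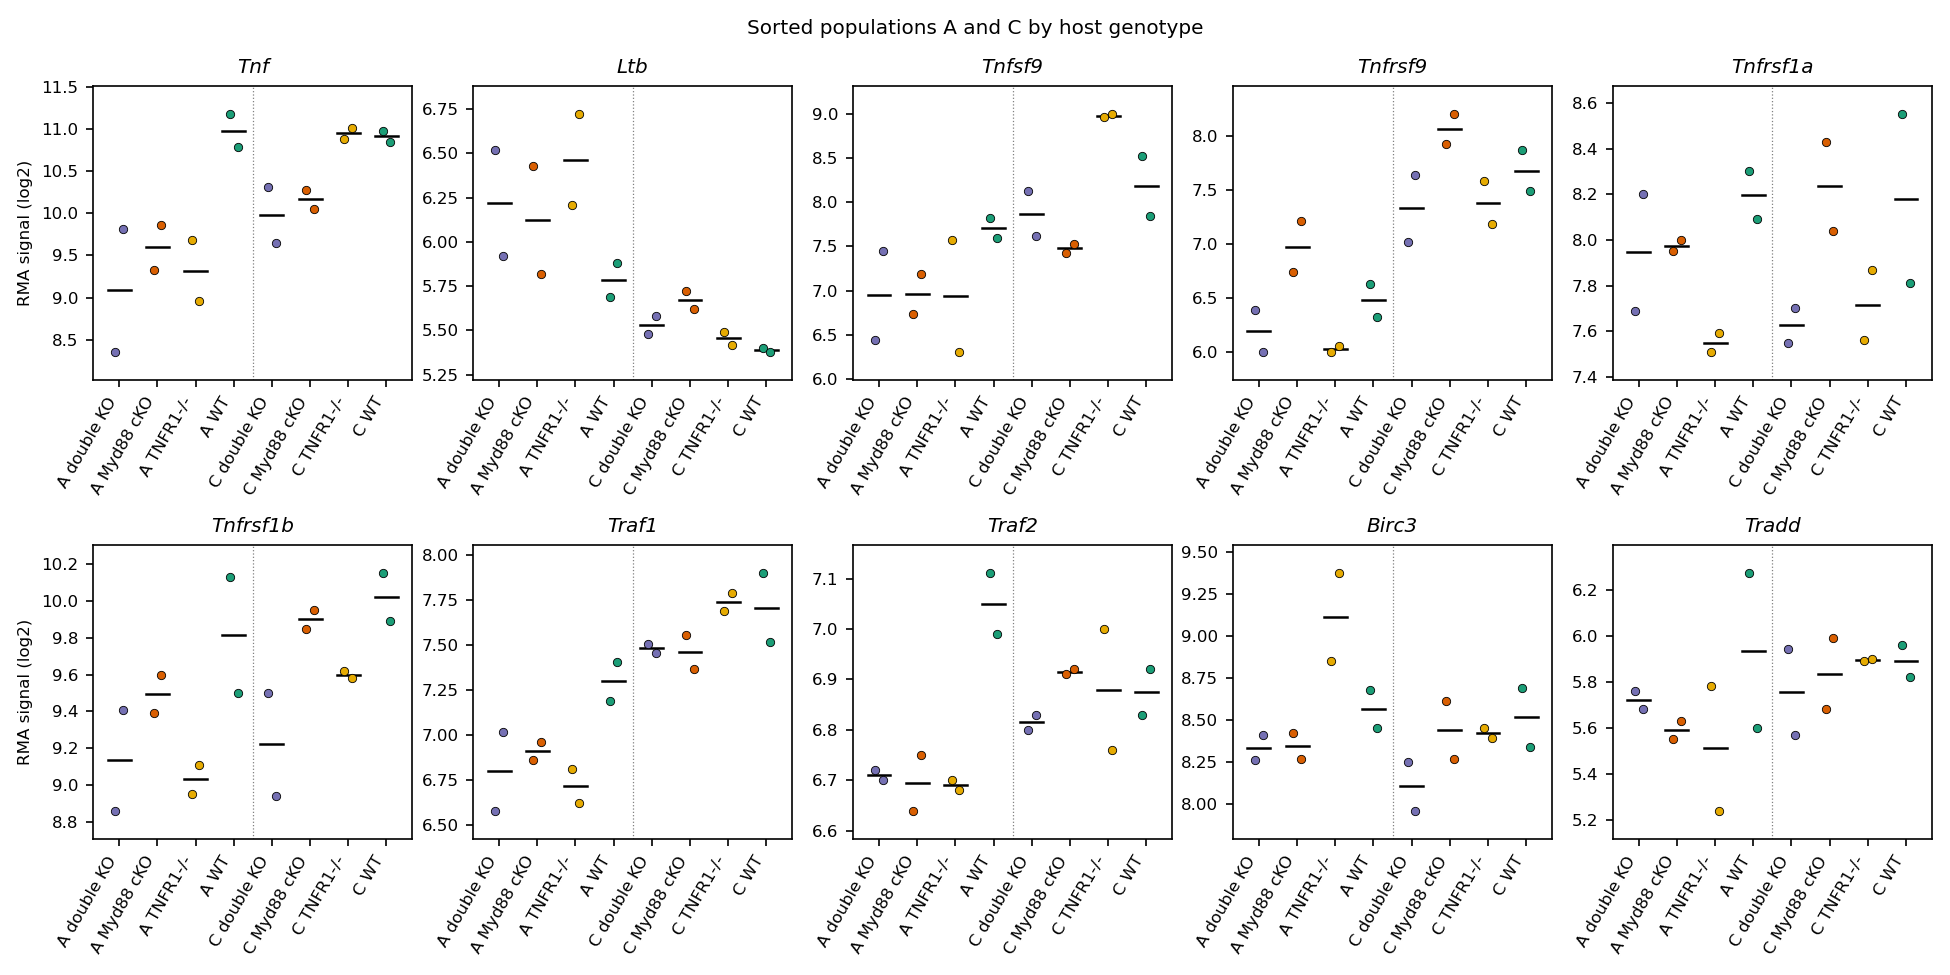
Log2 RMA signal of the 10 members (vertical axis, 1 panel per gene, each with its own scale) in sorted populations A and C by host genotype. Points are arrays (n = 2 each) and bars their mean. Tnf in A is highest in both WT arrays. Tnfrsf9, Tnfsf9 and Traf1 are lower, and Ltb is higher, in A than in C in every genotype.

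**Figure D3:**
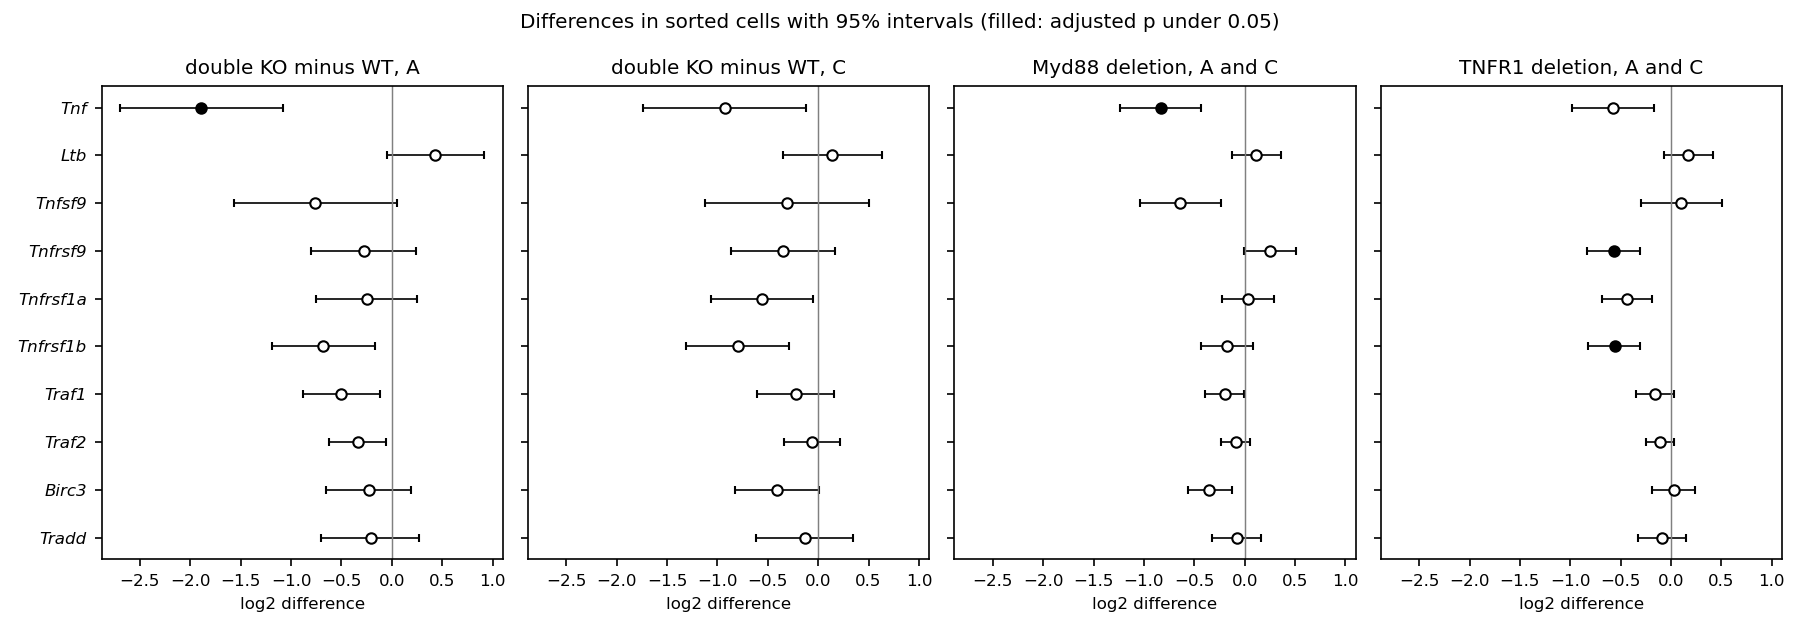
Log2 differences of the 10 members with 95% intervals (horizontal axis) for double KO minus WT in A and in C (n = 2 each) and for Myd88 deletion and TNFR1 deletion over both populations (n = 8 each). Filled points passed an adjusted p under 0.05: Tnf at -1.89 and -0.83, and Tnfrsf9 and Tnfrsf1b at -0.57 and -0.56.

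Populations A and C differed in 5 members when averaged over the 4 genotypes. Population A had more Ltb and less Tnf, Tnfsf9, Tnfrsf9 and Traf1 than C. Over all 16524 genes 32.3% were called, 11.1% as higher and 21.3% as lower. Of the genes called, 65.8% were lower, and 80.7% were lower with arrays centred on the median. The members' median difference was -0.24, against 0.01 over all genes, and the 5 calls held in all 25 other settings.

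The largest of these 5 differences was that of Tnfrsf9. Its lowest, median and highest values were 6, 6.36 and 7.21 in A and 7.02, 7.61 and 8.2 in C. The ranges touched, but in each genotype both A arrays lay below both C arrays, and the difference was -1.20 ± 0.12 (n = 8 each, limma adjusted p = 7.65e-06). Tnfsf9, the gene of its ligand, had 6.31, 7.32 and 7.82 in A and 7.43, 7.98 and 8.99 in C, a difference of -0.99 ± 0.19 (adjusted p = 0.00116), and its ranges overlapped. Traf1, which binds 4-1BB as well as TNFR2, had 6.58, 6.91 and 7.41 in A and 7.37, 7.54 and 7.9 in C, at -0.67 ± 0.09 (adjusted p = 6.94e-05). The ranges of Traf1 met only at their edges. In each genotype Tnfsf9 and Traf1 also had both A arrays below both C arrays, and Ltb had both above. How many of all genes split this way was not counted.

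Tnf had 8.36, 9.75 and 11.17 in A and 9.65, 10.57 and 11.01 in C, ranges that overlapped widely, with a difference of -0.76 ± 0.19 (adjusted p = 0.00716). In WT hosts alone the difference was 0.07 ± 0.38 (n = 2 each, adjusted p = 0.932). By genotype the mean of Tnf was 9.09 in A and 9.98 in C of double KO, 9.59 and 10.16 in Myd88 cKO, 9.32 and 10.95 in TNFR1-/-, and 10.97 and 10.91 in WT. Ltb had 5.69, 6.06 and 6.72 in A and 5.38, 5.48 and 5.72 in C, at 0.64 ± 0.11 (adjusted p = 0.000705). Ltb values in C were low for this chip, where the 40th percentile of an array lay between 4.92 and 5.14. In WT hosts alone Tnfrsf9 was the sole member called between A and C, at -1.21 ± 0.24 (adjusted p = 0.00636), where 13.5% of genes were called. That call was lost without replicate 1 of C_WT (-1.02, adjusted p = 0.0969) and with array weights (-1.2, adjusted p = 0.103).

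The 5 other members did not pass the test between populations. Tnfrsf1a differed by -0.02 ± 0.12 (95% interval -0.27 to 0.23), Tnfrsf1b by -0.32 ± 0.12 (adjusted p = 0.0547) and Traf2 by -0.08 ± 0.07. Tradd differed by -0.16 ± 0.11, with values of 5.24 to 6.27 in A. Birc3 differed by 0.22 ± 0.10 (adjusted p = 0.106), and its highest arrays were 8.85 and 9.37 in TNFR1-/- of A, against 8.26 and 8.41 in double KO, 8.27 and 8.42 in Myd88 cKO, and 8.45 and 8.68 in WT of A. Traf2 in A read 7.11 and 6.99 in WT and 6.64 to 6.75 in the 6 arrays of altered hosts, and was one of the 4 members without overlap there. It passed no test in A (adjusted p = 0.133 for double KO against WT).

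The sort sets other genes apart between A and C. In A, 8 of 9 markers of macrophages were lower (log2 summed signal 11.96 to 13.66 in A and 13.83 to 14.2 in C). Of the 8 neutrophil markers that passed the filter, 6 were higher in A (10.49 to 11.8 in A and 8.58 to 9.09 in C), although the A gate removes Ly6G+ cells, and Camp stood below the 40th percentile in all sorted arrays. T lymphocyte and EG7 markers were higher for 5 of 9 (9.18 to 10.87 in A and 9.34 to 9.97 in C). Also higher in A were 3 of 4 endothelial and 2 of 5 monocyte markers, and 2 of 7 dendritic cell markers were lower. The part of these in the members' differences was not tested.

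In the tumour model experiment, the question was how the cells of neuroblastomas differ from those of EG7 tumours. Of the 10 members 1 was called, Tnfrsf1b, which was lower in neuroblastoma. Over all 12577 genes 14.7% were called and 5.22% were lower, so 1 call of 10 lies near the share over all genes. The members' median difference was -0.6, against -0.01 over all genes.

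Tnfrsf1b read 9.59, 10.37 and 9.8 in neuroblastoma, against 10.81, 11.06 and 10.73 in EG7. The groups did not overlap and the difference was -0.95 ± 0.23 (n = 3 each, limma adjusted p = 0.0413). The call was lost without any one of EG7_model replicates 1, 2 and 3 or NB_model replicates 1 and 3 (adjusted p 0.0928 to 0.134). Groups also failed to overlap in Ltb, at 6.31, 7.69 and 6.41 in neuroblastoma against 6.2, 5.93 and 5.67 in EG7, and in Tradd. Tradd read 5.06, 5.27 and 4.87 in neuroblastoma, against 5.88, 5.41 and 5.53 in EG7. Neither passed the test (adjusted p = 0.186 and 0.113), and 36.1% of all genes had no overlap here.

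Neuroblastoma replicate 2 stood apart from the other neuroblastoma arrays in several members. Traf1 read 6.66, 9.31 and 7.38 in neuroblastoma, against 9.06, 9.11 and 9.02 in EG7, so that replicate 2 lay above all EG7 arrays and replicates 1 and 3 far below. Tnf read 10.12, 11.86 and 10.85 in neuroblastoma, against 11.54, 11.68 and 11.29 in EG7, and Tnfsf9 read 8.69, 10.4 and 9.44, against 10.35, 11.26 and 10.07. In Tnf, Ltb, Tnfsf9, Tnfrsf1b, Traf1, Traf2, Birc3 and Tradd, replicate 2 was the highest of the neuroblastoma arrays. With all arrays Tnf differed by -0.56 ± 0.42 and Traf1 by -1.28 ± 0.63, and neither was called (adjusted p = 0.423 and 0.226).

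When neuroblastoma replicate 2 was left out, as each array was in turn, 3 members were lower, where 19.5% of 12884 genes were called and 6.99% as lower. Traf1 differed by -2.04 ± 0.24 (2 against 3 arrays, adjusted p = 0.00353), Tnfrsf1b by -1.17 ± 0.18 (adjusted p = 0.00904) and Tnf by -1.02 ± 0.27 (adjusted p = 0.046). Tnfsf9 was at -1.5 ± 0.41 and did not pass (adjusted p = 0.0539). Tnfrsf1a read 9.84, 9.7 and 9.4 in neuroblastoma, against 9.58, 9.53 and 9.1 in EG7, and overlapped between the groups with and without that array. Tnfrsf9 read 5.49, 5.27 and 4.41 in neuroblastoma, against 5.51, 6.21 and 5.42 in EG7. With any array other than neuroblastoma replicate 2 left out, no member was called.

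Cells other than macrophages differed between the models. All 6 neuroblastoma markers measured were higher in neuroblastoma, 7 of 9 T lymphocyte and EG7 markers were lower (log2 summed signal 9.03 to 9.42 in neuroblastoma and 12.22 to 12.45 in EG7), and 4 of 5 endothelial markers were higher. The summed signal of natural killer cell markers spanned 5.75 to 10.87 within the neuroblastoma arrays alone. The part of these cells in the members' differences was not tested.

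**Figure D4:**
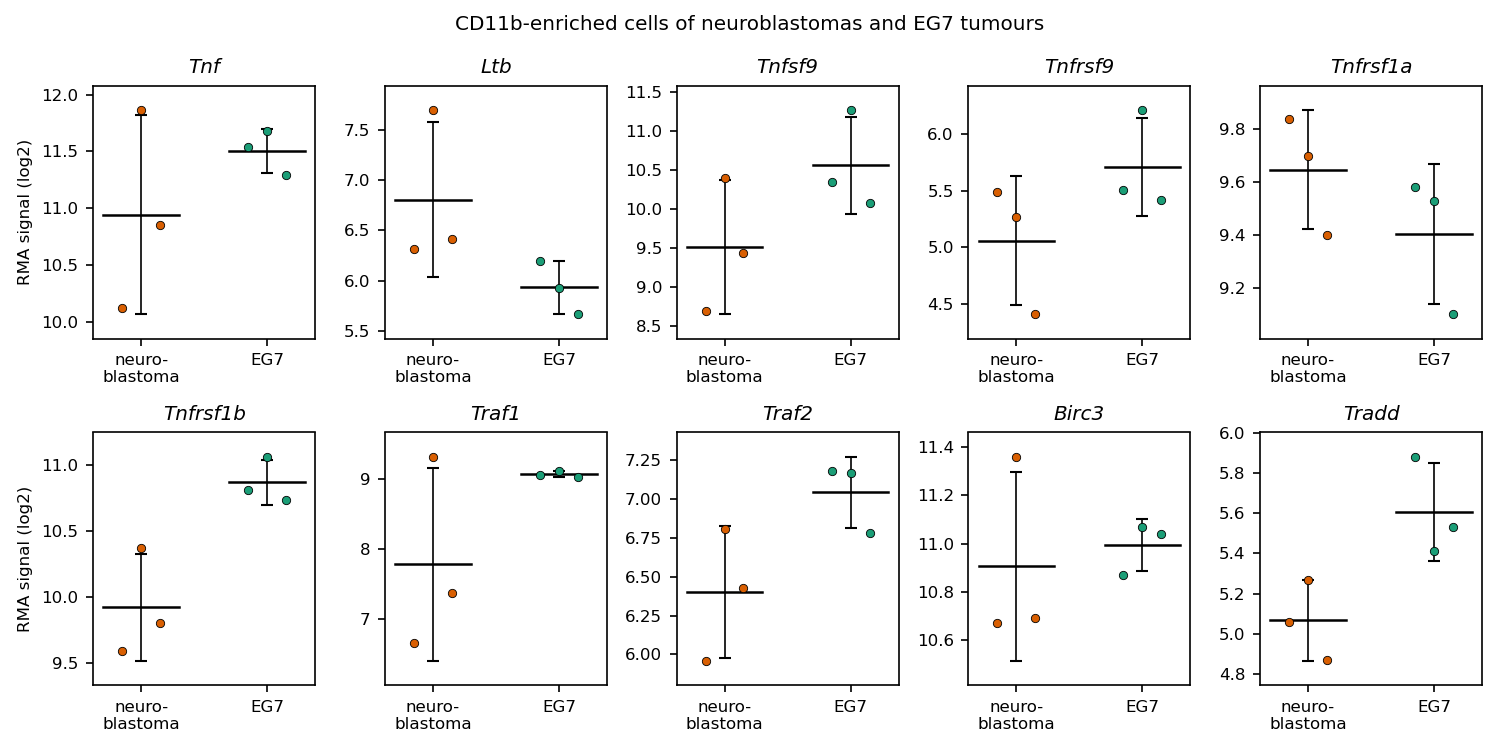
Log2 RMA signal of the 10 members (vertical axis, 1 panel per gene, each with its own scale) in CD11b-enriched cells of neuroblastomas and EG7 tumours. Points are arrays (n = 3 each), bars the mean and SD; 1 neuroblastoma array stands high in Traf1 (9.31, against 6.66 and 7.38), and in Tnfrsf1b all neuroblastoma arrays lie below all EG7 arrays.

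A list of 74 further ligands, receptors, signalling proteins and release or RNA decay factors of the TNF family gives the setting. In Myd88-/- hosts 3 of the 56 that passed the filter were lower and 0 higher, beside 1.18% of all genes lower. They were Cflar, which restrains caspase-8 at death receptors (-0.90 ± 0.15, adjusted p = 0.00946), the death receptor gene Fas (-0.61 ± 0.11, adjusted p = 0.0147) and Tnfaip3, the gene of the NF-kB inhibitor A20 (-0.37 ± 0.08, adjusted p = 0.0402). The list's median was -0.09. Of the 8 other ligands and 15 other receptors measured there, Fas was the sole call.

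Between A and C, 10 of 62 list genes were higher and 18 lower, beside 32.3% of all genes called, and the list's median was -0.04. Adam17, the protease that releases TNF from the membrane, was lower in A (-0.97 ± 0.12, adjusted p = 3.29e-05). So were Tnfrsf11a, the gene of RANK (-0.84 ± 0.11), Zfp36l1, which promotes decay of AU-rich RNA (-1.12 ± 0.15), and the decoy receptor gene Tnfrsf23 (-0.68 ± 0.09). Adam17 was also lower with TNFR1 deletion over both populations (-0.58 ± 0.12, adjusted p = 0.0196), where 3 list genes of 62 were higher and 3 lower, beside 1.98% of all genes called. Tnfaip3 was lower with Myd88 deletion over both populations (-0.62 ± 0.11, adjusted p = 0.0137), and Tnfrsf23 was higher (0.54 ± 0.09, adjusted p = 0.0105), the 2 list genes called there.

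In double KO of A, Cyld, a deubiquitinase that limits NF-kB signalling, was higher than in WT (1.28 ± 0.24, adjusted p = 0.0175), and so was the receptor gene Tnfrsf26 (1.16 ± 0.29, adjusted p = 0.036). These were the 2 of 62 list genes called, beside 5.75% of all genes. Neither rise was particular to double KO. Against WT in A, Cyld was also higher in TNFR1-/- (1.74 ± 0.24, limma adjusted p = 0.0181) and in Myd88 cKO (1.22 ± 0.24, adjusted p = 0.0212). Tnfrsf26 was higher in Myd88 cKO of A too (1.21 ± 0.29, adjusted p = 0.0403). All of these comparisons rest on the same 2 A_WT arrays. In neuroblastoma 2 of 60 were higher and 4 lower than in EG7, beside 14.7% of all genes called. The list was led by Timp3, an inhibitor of the TNF-releasing protease, at 4.09 ± 0.22 (adjusted p = 0.000213). Endothelial markers (4 of 5) and neuroblastoma markers (6 of 6) were higher in the same comparison, and their part in the list's differences was not tested. Tnfrsf21 was higher by 1.21 ± 0.15, and Tnfsf11, the gene of RANKL, was lower at -2.16 ± 0.28. Tnfsf11 averaged 2.99 in neuroblastoma and 5.16 in EG7. The neuroblastoma mean lay below the 40th percentile of those arrays, 3.44 to 3.48, so the size of its difference is uncertain.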

How the data were processed

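Expression was measured on 32 Affymetrix arrays in 12 groups taken from the labels, with 100 ng of RNA each. Each deposited value is the log2 signal of a probe set. Per the submitters' processing notes, the authors computed it by RMA, with Affymetrix Expression Console 1.1 as the tool. RMA corrects background, sets arrays on 1 distribution and summarises probes, so a shift of all RNA would be removed. Which arrays entered 1 normalization is not stated. Glioma arrays were not analysed here. Arrays give no read depth, and their number limits the precision.

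From these values, probe sets with 1 symbol in the platform annotation were used, and each gene was read through the one of highest mean on its chip. A gene was tested if it exceeded the 40th percentile of probe sets on no fewer arrays than the smallest group holds, with lmFit and eBayes of limma 3.58.1 (R 4.3.3), as a two-sided test. P-values were adjusted by Benjamini-Hochberg across every gene tested. Genes were called at an adjusted p under 0.05. The bead-enriched experiments were fitted apart, and the 16 sorted arrays together as 8 groups with 8 residual degrees of freedom. Values after ± are standard errors. The fits were tested on simulated data. Likeness to a member was the root mean square difference of mean-centred values.

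The text names the 10 members, the targeted genes and, per comparison, up to 4 called pathway genes of smallest adjusted p. The members and lists were chosen with earlier results of these data known. Other settings tried were the filter, probe set rule, moderation, array weights, renormalization, the arrays in the fit, a replicate block and leaving out each array. Those for contrasts over both populations were added after seeing the data. Replicate numbers were not taken as pairs. After group means were taken off, same-numbered arrays of different groups correlated at -0.25 to 0.23 in the Myd88 experiment. These correlations were -0.05 to 0.22 in the tumour models and -0.5 to 0.37 in sorted cells. The sorted values pool all pairs of groups, so whether A and C of 1 host were paired was not tested.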

Additional observations from a re-analysis of the deposited data

Results flagged for a closer look

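In Myd88-/- hosts, Tnf in replicate 2 read 9.7, below the other 4 arrays of the group, which read 9.81 to 9.85. The gap was 0.733 of the group's range, above Dixon's critical value of 0.71 for 5 arrays. Tnfrsf9 in the same array read 5.73, above the others at 5.35 to 5.43, with a gap of 0.789 of the range. These were 2 of 20 member and group pairs checked, and chance sets apart about 1 in 20. The lowest Tnf value in WT hosts was 11.01. Tnfrsf9 in WT hosts spanned 5.11 to 5.65, so the 5.73 of replicate 2 lay above the WT range, and the other 4 arrays lay within it.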

How the results depend on the processing

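The calls of Tnf, Tnfsf9, Traf1 and Birc3 in Myd88-/- hosts held in all 19 other settings, and the 5 calls between A and C in all 25. No member's difference changed direction in the settings run for called members. The count of members called in double KO against WT of A was 1, and became 0 with array weights, 0 with only the compared groups in the fit, 4 with quantile normalization again, and 0 to 2 with 1 array left out. For Myd88 deletion in A it was 0, and became 1 with quantile normalization again and 0 to 1 with 1 array left out. For Myd88 deletion in C it was 0 and became 2, and for TNFR1 deletion in C 0 and 1, with only the compared groups in the fit. For TNFR1 deletion in A it was 0, and 0 to 2 with 1 array left out. For neuroblastoma against EG7 it was 1, and became 0 with no filter and 0 to 3 with 1 array left out. The cause was not tested. With the replicate block, Tnfrsf1b in Myd88-/- hosts had an adjusted p of 0.0622 and Tnf in double KO of A kept its call. The labels do not say that the numbers pair the samples.

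Counts over all genes also moved, over all settings: 86 to 300 in Myd88-/- hosts (172 as reported), 663 to 2639 in neuroblastoma (1850), 301 to 3443 between A and C of WT (2223), 0 to 2346 for double KO in A (950) and 7 to 135 in C (51), 37 to 2375 for Myd88 deletion in A (772), 0 to 31 in C (3) and 119 to 1557 over both (472), and 0 to 790 for TNFR1 deletion in A (30), 78 to 466 in C (180) and 169 to 664 over both (327). With arrays centred on the median, genes called lower numbered 37 for Myd88 deletion over both populations, against 68 as reported. Groups of 2 sorted arrays share 1 estimate of spread, and with an array left out the lone one is taken to vary like the other groups. RMA signals compress low values, which limits dim probe sets.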

Other observations

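Over the 16 sorted arrays, the genes whose mean-centred values ran closest to Tnf were Nlrp3, the sensor of an inflammasome (root mean square difference 0.259 log2 units, where Tnf had an SD of 0.786), Ifitm2 (0.312), Il1b (0.357), the gene of interleukin-1 beta, Tmem243 (0.369) and Gadd45b (0.376). Closest to Tnfrsf9 were Cacna1d (0.168, where Tnfrsf9 had an SD of 0.71), Rai14 (0.191), Plekhn1 (0.225), Npc1 (0.236), a cholesterol transporter of lysosomes, and Naglu (0.236), a lysosomal enzyme. Closest to Tnfsf9 were Fcgr1 (0.3, SD 0.749), an Fc receptor gene, Ifitm2 (0.303), Pvr (0.306), Gadd45g (0.323) and Tmem176b (0.323). The Ltb list was led by Ak8 (0.146, SD 0.412). All 16524 genes were ranked, and arrays of 1 population share their sort, so the difference between A and C enters each of these values.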
